A study of Mus musculus with 30 samples.

Results

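Interferon-stimulated genes are the genes that cells switch on when interferon binds its receptors, and 36 of them were followed in sorted mouse retinal ganglion cells, which send the axons of the optic nerve to the brain. They were taken by symbol from a named list, and all 36 were found among the 24033 gene symbols used. All 36 passed the filter on low counts and were among the 16621 genes tested, so no member was lost to the filter. Every animal was an LSL-Cas9-GFP; Vglut2-Cre mouse, in which Cas9 and GFP are made in cells that express Vglut2, and every retina had received AAV2 with sgRNAs that were marked by mCherry. The sgRNAs were non-targeting in the NT groups and directed at Ssrp1, which encodes a subunit of the histone chaperone FACT, in the SSRP1KO groups. Control animals thus carried Cas9, Cre and the virus too. The optic nerve was crushed 2 weeks after the injection, and live cells positive for CD90.2, GFP or mCherry were sorted 1, 2, 3 or 4 days post crush (dpc) or from eyes labelled as having no crush. This gave 10 groups of 3 libraries. The series states its purpose as asking how disruption of Ssrp1 bears on survival gene programs after crush, and interferon genes were not singled out in the labels.

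Type I and type III interferons act through the kinases JAK1 and TYK2. These lead to the assembly of ISGF3, a complex with STAT2 and IRF9 that binds interferon-stimulated response elements, while type II interferon acts at gamma-activated sites. The products sense viral nucleic acid, block viral translation and replication, raise antigen presentation and attract immune cells. In the retina, microglia and other immune cells are known sources and responders, and neurons can respond too.

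The ganglion cell label was checked with 9 marker genes. None was at 0 in any library, and their summed levels were 4343 to 10550 CPM (counts scaled to the size of the library, with TMM). Library totals ran from 9715972 to 34420978 counts. Ssrp1 stood at 36.1 to 102 CPM in the 15 NT libraries and at 26.9 to 66.9 CPM in the 15 SSRP1KO libraries, so the ranges overlapped. The library labelled SSRP1KO no crush replicate 3 had 66.9 CPM, within the NT no crush range of 61.0 to 67.9 CPM. The library labelled NT 2dpc replicate 3 had 36.1 CPM, below all 3 SSRP1KO 2dpc libraries (39.0 to 45.4 CPM). The mRNA level thus separates the labels only in part. Whether the 3 libraries of each group are 3 animals, pools or aliquots is not stated, so a p-value refers to the spread seen here, part of which may be technical. In these bulk libraries, fewer responding cells and less RNA per cell cannot be told apart. NT 2dpc replicate 3, SSRP1KO no crush replicate 3 and SSRP1KO 2dpc replicate 5 had the lowest mean Spearman correlations with their own groups (0.953, 0.951 and 0.932). Counts of members called are given with and without them where they changed, but values of single genes mostly include them.

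Sex also differed between libraries. The SSRP1KO 1dpc and 2dpc libraries had 0.188 to 0.855 CPM of Xist, the RNA that coats the inactive X chromosome, and NT 1dpc had 1053 to 1686 CPM. Levels of Y-linked genes were 172 to 228 CPM in those SSRP1KO libraries and 0.0473 to 48.0 CPM in NT 1dpc. Without crush the separation ran the other way, with 1293 to 2608 CPM of Xist and at most 0.12 CPM of Y-linked genes in SSRP1KO, and 0.364 to 190.2 and 167 to 188 CPM in NT. At 1dpc and without crush, sex and sgRNA therefore cannot be told apart. Sex and crush cannot be told apart either in NT at 1dpc and 4dpc, nor in SSRP1KO at 1dpc and 2dpc. A sex score, the log2 ratio of Xist to the Y-linked genes, was therefore tried as a covariate. Several libraries, such as NT no crush replicate 1 with 190.2 CPM of Xist and 184 CPM of Y-linked genes, held RNA of both kinds.

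The DNA sequence before the genes' starts was examined first, since it is what interferon-activated factors bind. RefSeq promoters (GRCm38.p6, 250 bases before to 50 after the start) were matched for 28 of the 36 genes. The core of the response element, GAAA then NN then GAAA, or its reverse complement TTTC then NN then TTTC, was present in 17 of the 28 (60.7%), against 1079 of 27025 genes with a promoter (3.99%). A gamma-activated core, TTCNNNGAA on either strand, was present in 8 (28.6%), against 2582 genes (9.55%). The promoters of 5 members held both, and in 1 of these the motifs overlapped. In 5 members, matches of the response element overlapped each other. A match describes letters and not a bound site. The 6 stretches below belong to members that carry the results that follow, with the response element core in capitals and each read 5′ to 3′ on the gene's own strand; they show the same core in either orientation close to the start.
Ifit1, chr19:34640770-34640809, plus strand: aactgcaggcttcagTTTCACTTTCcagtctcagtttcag
Ifit3, chr19:34583358-34583397, plus strand: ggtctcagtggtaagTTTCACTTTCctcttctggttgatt
Rsad2, chr12:26456548-26456587, minus strand: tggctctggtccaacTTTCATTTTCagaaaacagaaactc
Isg15, chr4:156200866-156200905, minus strand: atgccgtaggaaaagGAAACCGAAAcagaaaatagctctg
Gbp3, chr3:142559984-142560023, plus strand: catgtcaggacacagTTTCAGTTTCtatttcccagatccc
Cxcl10, chr5:92349078-92349117, minus strand: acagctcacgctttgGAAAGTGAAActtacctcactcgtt
In these windows the core began 104 bases before the start in Ifit1, 156 in Ifit3, 120 in Rsad2, 72 in Isg15, 45 in Gbp3 and 213 in Cxcl10.

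The 36 genes varied from library to library, within groups as well as between them. In NT no crush and in NT 2dpc, 1 library was the highest of its group for 35 of the 36 genes. In the other groups the largest such count ran from 16 in NT 4dpc to 30 in SSRP1KO 4dpc. No share of all genes was computed for these counts. The summed level of the 36 genes was 209.7, 235 and 2831 CPM in the 3 NT no crush libraries. It was 3463, 3610 and 1531 CPM at NT 1dpc, and 3520, 1088 and 186.5 CPM at NT 2dpc. At NT 3dpc it was 163, 144 and 149 CPM, and at NT 4dpc 839, 647.5 and 754 CPM. One uncrushed control library, NT no crush replicate 3, thus lay beside the 1dpc libraries, and 1 library at 2dpc, NT 2dpc replicate 3, lay beside the other uncrushed ones. NT 2dpc replicate 3 also had the lowest total, 9715972 counts. It held 3836 CPM of Xist and 0.333 CPM of Y-linked genes. Replicates 1 and 2 of that group held 0.517 and 1.19 CPM of Xist and 207 and 232 CPM of Y-linked genes. Sex, depth and level cannot be told apart there. The SSRP1KO libraries spanned a narrow range. Their sums were 282, 274 and 526 CPM without crush, 333, 316 and 339.6 CPM at 1dpc, 351, 386 and 537 CPM at 2dpc, 218, 376 and 254 CPM at 3dpc, and 271, 520.5 and 310.2 CPM at 4dpc. Each of the 36 genes had its highest level of the 30 libraries in an NT library. The highest and the lowest library differed 25-fold.

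**Figure D1:**
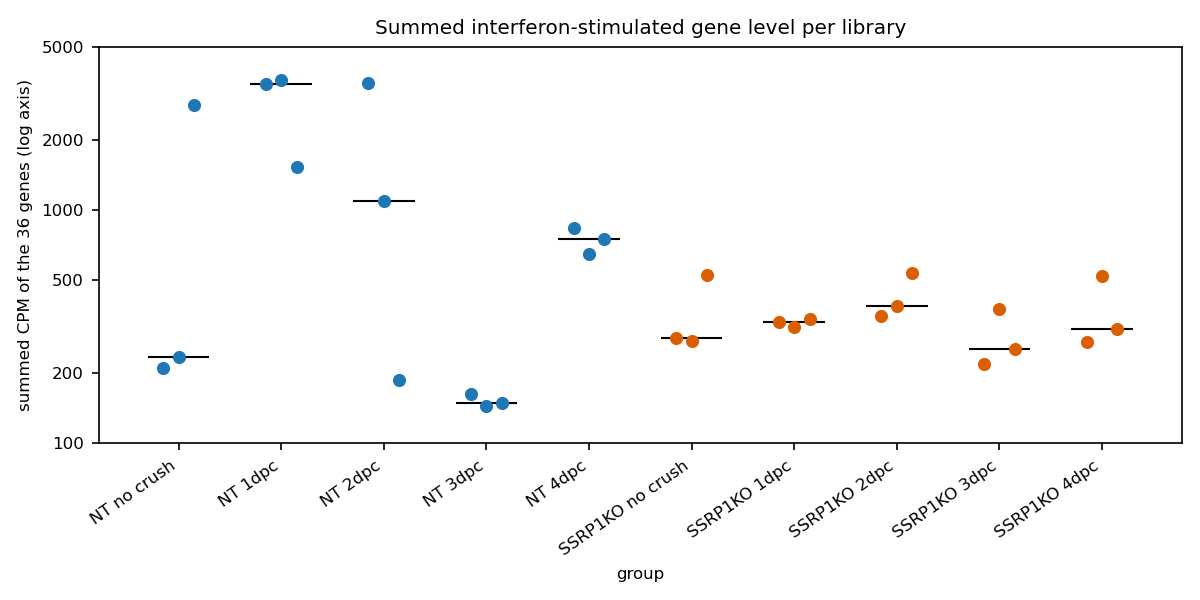
Summed level of the 36 interferon-stimulated genes in each of the 30 libraries (vertical axis, CPM on a log axis) by group (horizontal axis). Points are libraries, blue for NT and orange for SSRP1KO, and black lines are group medians. NT no crush spans 209.7 to 2831 CPM and NT 2dpc 186.5 to 3520 CPM, while NT 3dpc lies between 144 and 163 CPM.

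The spread within groups was measured as the SD of log2(CPM + 0.5) over the 3 libraries. Pooled over the 10 groups, its median over the 36 genes was 1.15, against 0.35 over all genes tested, and all 36 lay above that all-gene median. It was 2.18 against 0.22 in NT no crush and 2.25 against 0.33 in NT 2dpc. In NT 1dpc it was 0.79 against 0.18, and all 36 genes lay above the all-gene median there too. In SSRP1KO 4dpc it was 0.52 against 0.16, in SSRP1KO no crush 0.74 against 0.37, in SSRP1KO 2dpc 0.68 against 0.39 and in SSRP1KO 3dpc 0.47 against 0.23. The members stood nearest to the other genes in NT 4dpc (0.35 against 0.32), SSRP1KO 1dpc (0.23 against 0.17) and NT 3dpc (0.33 against 0.19). Pseudocounts of 0.1 and 2 gave pooled medians of 1.32 and 0.90.

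**Figure D2:**
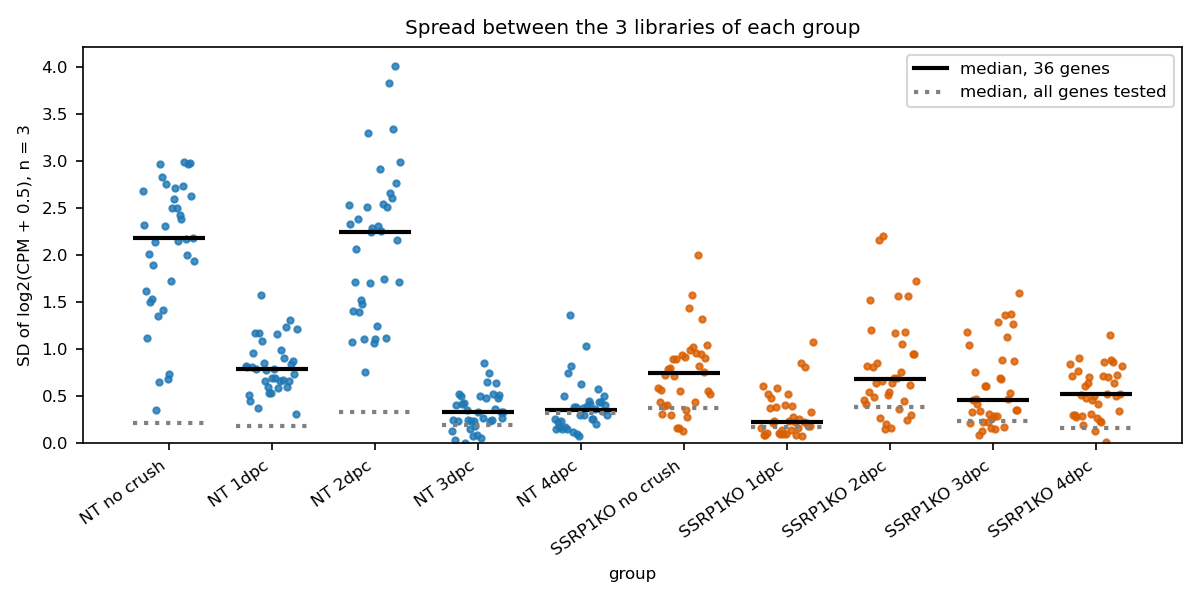
SD of log2(CPM + 0.5) between the 3 libraries of each group (vertical axis) for each of the 36 genes (points), by group (horizontal axis). Black lines are medians over the 36 genes and dotted grey lines medians over all genes tested; the members stand at 2.18 and 2.25 in NT no crush and NT 2dpc, and at 0.35 in NT 4dpc, where all genes are at 0.32.

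NT no crush replicate 3 was the highest of its group for 35 of the 36 genes, and for 30 it exceeded all 15 SSRP1KO libraries. The share of all genes for these counts was not computed. The median gene stood 19.2-fold above the mean of replicates 1 and 2 there. Mx1 was the exception, with 16 counts over the group and none in replicate 3. Over the whole transcriptome this library did not stand apart, with a mean Spearman correlation of 0.977 with its group, against 0.978 and 0.979 for the others. Its sex markers, 0.697 CPM of Xist and 188 CPM of Y-linked genes, were like those of replicate 2 (0.364 and 167 CPM). The 16 microglia and macrophage markers summed to 191, 104 and 95.2 CPM in NT no crush replicates 1, 2 and 3, and none was at 0. The 5 T and NK cell markers in the table summed to 5.50, 4.90 and 0.48 CPM, with 2 of them at 0 in replicate 3. Lyz2, a lysozyme, measured 72.4, 32.6 and 13.5 CPM in these libraries, and without it the microglia sums were 119, 71.0 and 81.7 CPM. Replicate 3 then lay below replicate 1 and above replicate 2. Of the 16 markers, 15 were lower in replicate 3 than in replicate 1, and 9 were higher than in replicate 2.

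The microglia sum had the order of the interferon-stimulated gene sum in 1 of the 10 groups. In NT 2dpc, the microglia sum was 339, 309 and 81.6 CPM in replicates 1, 2 and 3, the same order as the interferon-stimulated gene sums. NT 1dpc replicate 1 had 1077 CPM, against 142 and 228 CPM in replicates 2 and 3, although replicate 2 had the highest interferon-stimulated gene sum of all. At NT 3dpc the microglia sum was 175 to 212 CPM. The marker Cd68 alone gave 103, 114 and 111 CPM of it, against 7.90, 3.60 and 6.38 CPM in NT no crush. That sum therefore does not stand for the other markers of the list. At NT 4dpc the microglia sum was 272, 331 and 433 CPM in replicates 1, 2 and 3, and replicate 1 had the highest member sum. Cd68 gave 136, 90.8 and 98.8 CPM of these. SSRP1KO no crush replicate 3 had 1636 CPM of these markers and the highest member sum of its group. The microglia sum was 255 to 451 CPM at SSRP1KO 2dpc, 174 to 382 CPM at 3dpc and 275 to 550.5 CPM at 4dpc. At SSRP1KO 4dpc its highest library, replicate 1, had the lowest member sum. Lyz2 measured 304, 46.7 and 82.5 CPM and Cd68 71.9, 50.3 and 44.5 CPM in SSRP1KO 4dpc replicates 1, 2 and 3. These markers weigh heavily in the sums, and the order of the groups without both was not computed. The part that immune cells play in these levels was not tested.

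The transcription factors of the set are those that carry the interferon signal to DNA. Stat2, the ISGF3 subunit, measured 52.9, 48.5 and 196 CPM in NT no crush, 134, 215 and 118 CPM at 1dpc, 194, 89.5 and 27.6 CPM at 2dpc, 36.8, 22.4 and 36.6 CPM at 3dpc and 80.1, 68.1 and 85.6 CPM at 4dpc. It spanned 35.02 to 98.3 CPM over the 15 SSRP1KO libraries. Irf7, which amplifies interferon production and is itself induced, measured 0.750, 0.324 and 15.7 CPM in NT no crush, 22.2, 23.8 and 8.41 CPM at 1dpc, 0.389, 0.162 and 0.389 CPM at 3dpc and 5.24, 5.31 and 4.30 CPM at 4dpc. The 1dpc and 4dpc libraries lay above NT no crush replicates 1 and 2, and only 1 of the 3 1dpc libraries lay below replicate 3. Irf1, which responds most to type II interferon, measured 1.00, 0.0810 and 20.5 CPM in NT no crush and 55.8, 32.8 and 17.6 CPM at 1dpc. Irf9, the DNA-binding subunit of ISGF3, measured 7.60, 14.4 and 70.6 CPM and 58.9, 97.7 and 48.7 CPM in the same groups.

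Among the sensors, Ddx58 (RIG-I) and Ifih1 (MDA5) recognise double-stranded RNA, Eif2ak2 (PKR) halts translation on binding it and Zbp1 senses Z-form nucleic acid. Ddx58 measured 5.50, 5.34 and 66.2 CPM in NT no crush, 54.2, 94.6 and 30.6 CPM at 1dpc, 5.41, 6.35 and 4.44 CPM at 3dpc and 27.4, 22.3 and 31.0 CPM at 4dpc. Eif2ak2 measured 11.8, 8.99 and 104 CPM in NT no crush and 30.9, 34.5 and 39.4 CPM at 4dpc. Both showed the 4dpc libraries between the low and the high uncrushed libraries. The oligoadenylate synthetases make the messenger that activates RNase L, apart from the synthetase-like Oasl1. Oasl2 held the highest CPM of any member in any library, and measured 13.3, 27.5 and 661 CPM in NT no crush, 516, 718 and 226 CPM at 1dpc, 651, 203 and 20.6 CPM at 2dpc, 7.90, 9.22 and 9.81 CPM at 3dpc and 114, 99.2 and 97.5 CPM at 4dpc. In the SSRP1KO libraries Oasl2 spanned 12.2 to 61.0 CPM. Oas2 was low throughout, at most 3.60 CPM, and had no count in any NT 3dpc library.

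The antiviral effectors are the largest group, with 11 members. Ifit1, which binds RNA without the cap methylation of host mRNA, lies on the plus strand of chromosome 19 (GRCm38, 34640871 to 34650009). It measured 9.25, 7.57 and 264 CPM in NT no crush, 209.6, 333 and 133 CPM at 1dpc, 204, 44.3 and 1.77 CPM at 2dpc, 4.13, 2.83 and 3.54 CPM at 3dpc and 74.0, 42.9 and 54.5 CPM at 4dpc. In SSRP1KO it measured 5.79, 5.05 and 4.50 CPM without crush, 11.7, 13.3 and 13.0 CPM at 1dpc and 8.04, 19.0 and 7.73 CPM at 4dpc. All 3 NT libraries at 1dpc and at 4dpc were above every SSRP1KO library of the same day. Ifit3, an IFIT partner with a close copy in Ifit3b, measured 14.3, 20.4 and 276 CPM in NT no crush, 293, 403 and 176 CPM at 1dpc and 4.09, 3.84 and 5.41 CPM at 3dpc. Its 3 libraries at 3dpc lay below all 3 uncrushed ones. Rsad2 (viperin, which makes a chain-terminating nucleotide) measured 1.00, 0.405 and 30.6 CPM in NT no crush, 79.6, 78.6 and 41.3 CPM at 1dpc and 26.3, 29.4 and 28.2 CPM at 4dpc, and 0.341 to 12.03 CPM in the SSRP1KO libraries. Cmpk2, its neighbour on chromosome 12 and a mitochondrial nucleotide kinase, departed from the others with 23.8, 35.9 and 62.4 CPM in NT no crush, 7.24, 6.83 and 7.75 CPM at 3dpc and 14.0, 9.12 and 11.7 CPM at 4dpc. Every Cmpk2 library at 3dpc and 4dpc was below every uncrushed one, the low ones included.

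Isg15, a ubiquitin-like protein, measured 1.5, 0.162 and 12.2 CPM in NT no crush and 21.0, 8.27 and 5.09 CPM at 1dpc. Usp18, which removes ISG15 and restrains the receptor, measured 1.30, 3.08 and 43.5 CPM, 37.5, 55.7 and 21.8 CPM and, at 4dpc, 16.9, 16.4 and 12.1 CPM. Replicate 3 of NT no crush lay within the 1dpc range for both. The inducible GTPases act on the membranes around intracellular microbes. Gbp3 measured 0.600, 3.00 and 59.7 CPM in NT no crush, 103, 28.4 and 0 CPM at 2dpc and 0.584, 0.445 and 0.0779 CPM at 3dpc, and Igtp (Irgm3) measured 9.15, 2.83 and 183 CPM in NT no crush and 198, 80.1 and 5.21 CPM at 2dpc. Gbp3 had no count in NT 2dpc replicate 3. Tap1, the peptide transporter of antigen presentation, measured 4.2, 5.18 and 70.1 CPM in NT no crush and 67.4, 51.5 and 43.8 CPM at 1dpc. Cxcl10, a chemokine for T cells, measured 0.700, 0 and 6.49 CPM in NT no crush, 52.3, 18.2 and 9.46 CPM at 1dpc and 0, 0.242 and 0 CPM at 3dpc. The SSRP1KO libraries without crush held 5.28, 5.97 and 10.8 CPM of it, above NT no crush replicates 1 and 2.

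**Figure D3:**
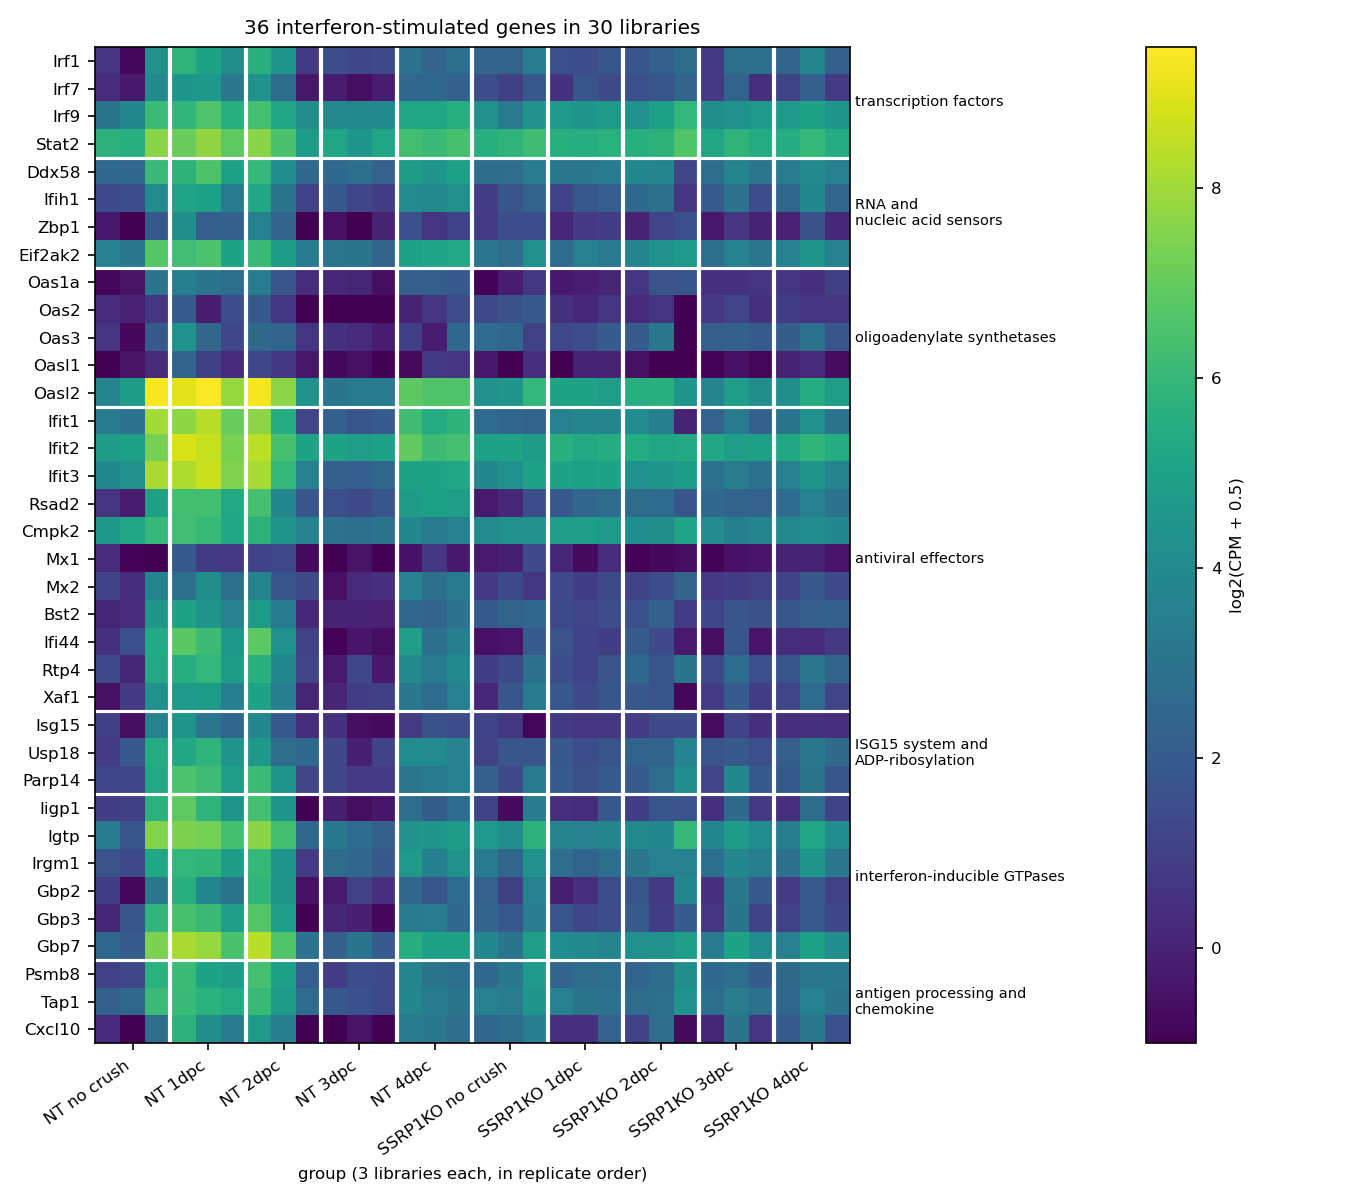
Level of each of the 36 genes, as log2(CPM + 0.5) on the colour scale, in each of the 30 libraries. Rows are genes in the order of their roles (named at the right) and columns are libraries, 3 to a group in replicate order; bright columns run through nearly all rows in NT no crush replicate 3, NT 1dpc, and NT 2dpc replicates 1 and 2.

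Crush in NT cells was tested against NT no crush with edgeR's quasi-likelihood test, two-sided and adjusted over 16621 genes, with a threshold of 0.05. At 1dpc, 1 of the 36 genes rose and none fell. It was Ifit2, an IFIT protein known to favour cell death, at 26.6, 31.1 and 159.7 CPM without crush and 467, 379 and 167 CPM at 1dpc, a log2 fold change of 2.22 ± 0.56 (SE, edgeR adjusted p = 0.031). All 3 libraries at 1dpc lay above the 3 uncrushed ones. Over all genes 1.38% rose and 0.475% fell. All 36 fold changes were positive, with a median of 1.58 against 0.00457 over all genes, but only 5 genes had all 1dpc libraries above all uncrushed ones, where 12.4% of all genes did. At 2dpc no member was called by edgeR or by DESeq2, 2 had an unadjusted p under 0.05, and the median was 0.97. In the fit of all 30 libraries 9.47% of all genes rose and 9.35% fell. Without the 3 libraries that stand apart, 2 members rose and the median was 1.52, where 10% of all genes rose and 10% fell.

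At 3dpc, 23 of the 36 genes fell and none rose, against 12.2% and 11.9% of all genes, and all 36 fold changes were negative with a median of -3.18. The genes that fell included 7 of 11 antiviral effectors, 2 of 4 transcription factors, 2 of 4 sensors, 2 of 5 oligoadenylate synthetases, 4 of 6 GTPases, all 3 of the ISG15 group and all 3 of the antigen processing and chemokine group. Ifi44 fell by 6.55 ± 1.56 (SE, edgeR adjusted p = 0.00221), from 0.900, 2.43 and 42.2 CPM to 0.0389, 0.283 and 0.156 CPM. Iigp1, a GTPase, fell by 5.94 and Gbp3 fell by 5.83. Ifit1 fell by 4.74, Oasl2 by 4.70 and Ifit3 by 4.54 ± 0.84 (SE, edgeR adjusted p = 0.000144). Cxcl10 fell by 4.85, Irf7 by 4.13 and Rtp4, a chaperone of membrane receptors, by 4.09. Oas2 was at least 19.8-fold lower than without crush (edgeR adjusted p = 0.00161), taking a floor of 3 counts over the 3 NT 3dpc libraries. In 12 of the 36 genes every 3dpc library lay below every uncrushed one, where 21.5% of all genes did. At 4dpc, 1 member fell and none rose, against 13.2% and 14.0% of all genes: Cmpk2 fell by 1.82 ± 0.38 (SE, edgeR adjusted p = 0.00046), a call lost with the sex score as covariate.

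These counts turned on NT no crush replicate 3. Without that library, 28 of the 36 genes rose at 1dpc, where 1.48% of all genes did, with a median of 4.54. At 2dpc 29 rose (7.2% of all genes, median 3.71), and at 4dpc 20 rose and 1 fell (11.4% and 11.3%, median 2.52). At 3dpc, 3 fell (9.51%, median -0.51), namely Oas2, Ifit3 and Cmpk2, and the other 20 calls were lost. In that fit Rsad2 rose on 3 days, the changes being 6.59 at 1dpc (edgeR adjusted p = 0.000105), 5.60 at 2dpc (9.44e-05) and 5.34 at 4dpc (7.07e-05). Bst2, which tethers budding virus, rose at 1dpc (5.04) and 4dpc (3.15), as did Usp18 (4.12 and 2.77). Ifit2 rose by 3.55 at 1dpc (edgeR adjusted p = 0.000331). For 35 of the 36 genes all 3 libraries at 1dpc, and for 30 all 3 at 4dpc, lay above NT no crush replicates 1 and 2, and for 12 all 3 at 3dpc lay below both. The share of all genes for these counts was not computed, and separation from 2 libraries is easier to reach than from 3. With all 3 uncrushed libraries, 12.4% and 20.4% of all genes lay above at 1dpc and 4dpc, and 21.5% lay below at 3dpc. Which of the uncrushed libraries represents uncrushed NT cells cannot be told from 3 libraries.

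**Figure D4:**
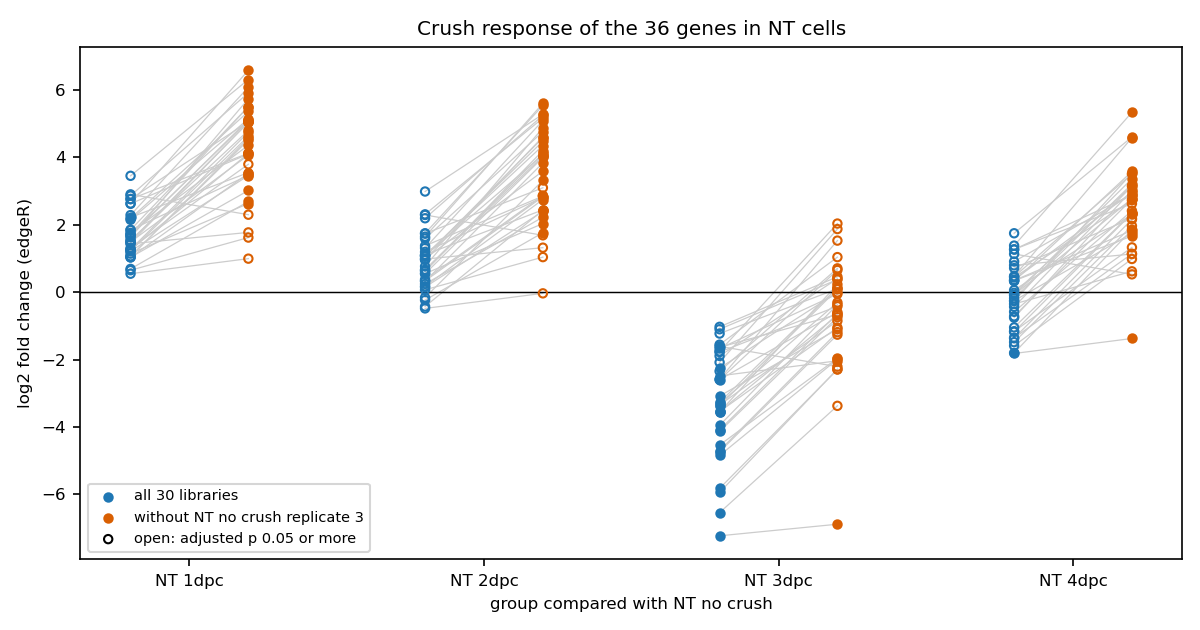
Log2 fold change (edgeR, vertical axis) of each of the 36 genes in NT cells at 1, 2, 3 and 4dpc against NT no crush (horizontal axis). Blue points use all 30 libraries and orange points leave out NT no crush replicate 3, grey lines join the same gene, and filled points have an adjusted p under 0.05; the median at 1dpc moves from 1.58 to 4.54 and at 3dpc from -3.18 to -0.51.

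In SSRP1KO cells no member was called at any of the 4 days against SSRP1KO no crush by edgeR. Unadjusted p-values under 0.05 numbered 1, 4, 1 and 1 at 1, 2, 3 and 4dpc, and DESeq2 called 0, 0, 0 and 1. The shares of all genes that rose were 3.03%, 7.64%, 8.77% and 6.88%, and those that fell 1.01%, 4.03%, 5.75% and 6.2%. Libraries did not overlap, higher after crush, for 5, 3, 1 and 6 members (14.0%, 10.3%, 16.6% and 18.2% of all genes), and lower for 6, 2, 6 and 1 (10.1%, 8.89%, 11.5% and 13.7%). The medians of the members were -0.29, 0.20, -0.37 and -0.14, and without NT no crush replicate 3, which enters only through the shared spread, the calls were 0, 1, 1 and 1. With the sex score as covariate the medians were -2.27, -2.23, -0.66 and -0.10. Oasl2 is an example, with 19.3, 21.9 and 61.0 CPM without crush, 32.0, 32.2 and 27.9 CPM at 1dpc, 47.1, 49.6 and 21.5 CPM at 2dpc, 12.2, 29.2 and 17.7 CPM at 3dpc and 17.9, 44.2 and 28.5 CPM at 4dpc.

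SSRP1KO was next compared with NT at each time. Without crush, 1 member fell and none rose, against 2.47% and 1.44% of all genes. In 2 members every SSRP1KO library lay below every NT library and in 1 above, against 12.6% and 8.31% of all genes. The call was Ifit1, lower by a log2 fold change of -4.19 ± 1.11 (SE, edgeR adjusted p = 0.030). That call rested on NT no crush replicate 3, for without it the fold change was -0.71 (adjusted p = 0.733), no member was called and the median went from -1.25 to 1.47. Without the 3 libraries that stand apart, 1 of which is in this comparison, 10 members fell and 9.23% of all genes did. With the sex score as covariate no member was called, Ifit1 stood at -1.17 (edgeR adjusted p = 0.789) and the median at 0.43.

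At 1dpc all 36 genes were lower in SSRP1KO, with a median log2 fold change of -3.20, and for 34 of them every SSRP1KO library lay below every NT library, where 10.4% of all genes did. In the fit of all 30 libraries none of the 36 passed the threshold, and only 0.012% of all genes fell and 0.00602% rose. The smallest adjusted p among members was 0.0736 for Ifit2, 32 had an unadjusted p under 0.05, and DESeq2 called 8. When only the 6 libraries of that day entered the fit, and the spread came from them alone, 32 of the 36 fell and 1.53% of all genes did. In that fit Iigp1 fell by 5.27, Ifi44 by 5.13, Gbp3 by 4.67, Rtp4 by 4.28 (edgeR adjusted p = 5.06e-06) and Ifit1 by 4.13 (4.86e-06). The 4 not called were Oas2, Oas3, Oasl1 and Mx1. In the 30-library fit without NT no crush replicate 3, 21 members fell and 0.217% of all genes did. That library is in neither group compared here and enters only through the shared fit. With a sex score as covariate 1 member fell. Microglia markers summed to 229 to 255 CPM in SSRP1KO and 142 to 1077 CPM in NT.

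At 2dpc no member was called, 19 had an unadjusted p under 0.05 and DESeq2 called 3; 0.012% of all genes fell and 0.0722% rose. The median was -1.89. In 1 gene every SSRP1KO library lay below every NT library and in none above, where 6.8% and 7.03% of all genes did. This day holds 2 of the 3 libraries that stand apart, and without them the median was -2.82 and again no member was called. At 3dpc the order was the opposite. All 36 fold changes were positive with a median of 1.14, and for 22 genes every SSRP1KO library lay above every NT library, where 13.1% of all genes did. SSRP1KO 3dpc replicate 2 was the highest of its group for 28 of the 36 genes. It held 3451 CPM of rod markers, against 654 and 552 CPM in replicates 1 and 3. Its bipolar cell markers summed to 327.5 CPM, against 146 and 152 CPM. The part that other retinal cells play in these levels was not tested. Only Oas2 passed the threshold (edgeR adjusted p = 0.0191), at 1.16, 1.81 and 0.956 CPM against 0 in all NT libraries and at least 33.2-fold higher, while 0.752% of all genes rose and 0.355% fell. At 4dpc, 33 fold changes were negative with a median of -1.02, and 21 genes had every SSRP1KO library below every NT library (15.6% of all genes). Ifi44 was the only call, at 28.4, 6.56 and 10.9 CPM in NT and 0.782, 0.734 and 1.15 CPM in SSRP1KO, a log2 fold change of -4.07 ± 1.27 (SE, edgeR adjusted p = 0.0497), and 4.17% of all genes fell and 2.74% rose. That call was lost in 7 of 13 alternatives. With only the 6 libraries of that day in the fit, 12 members fell and none rose, against 3.33% and 2.94% of all genes.

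**Figure D5:**
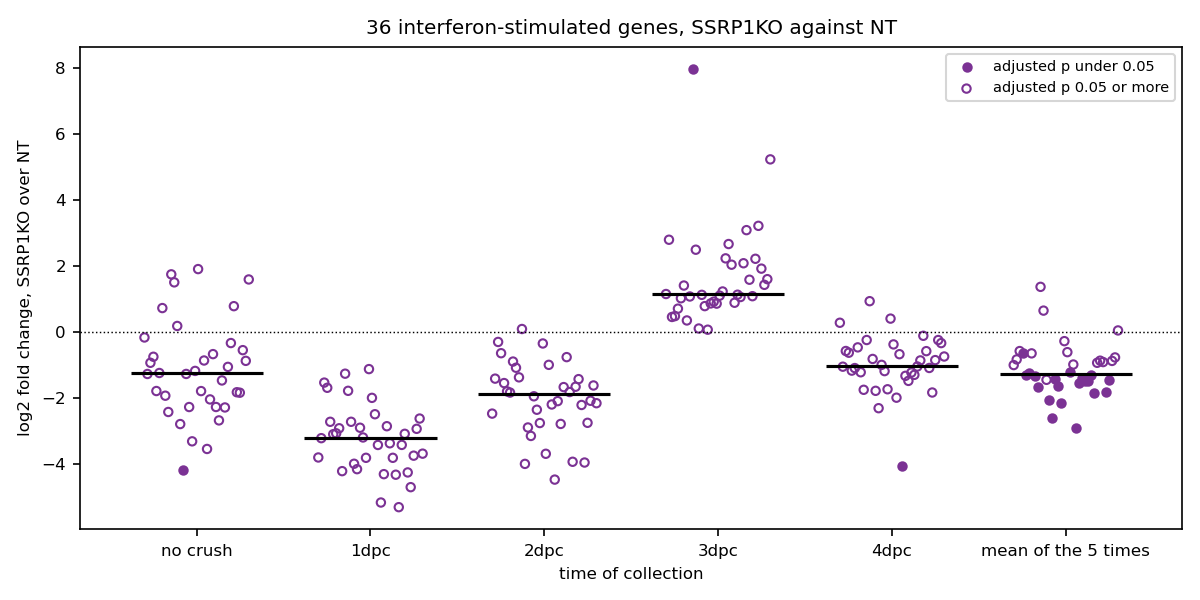
Log2 fold change of SSRP1KO over NT (edgeR, vertical axis) for each of the 36 genes at each time of collection and as the mean of the 5 times (horizontal axis). Filled points have an adjusted p under 0.05 and black lines are medians, which stand at -1.25 without crush, -3.20 at 1dpc, -1.89 at 2dpc, 1.14 at 3dpc, -1.02 at 4dpc and -1.27 for the mean.

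As the mean of the 5 differences, 20 of the 36 genes fell in SSRP1KO and none rose, against 10.2% and 9.64% of all genes, and the median was -1.27 against 0.0235 over all genes. Ifi44 fell by 2.91 ± 0.74 (SE, edgeR adjusted p = 0.00631) and Ifit1 by 2.60 ± 0.46 (0.000249). Rsad2 fell by 2.13, Oasl2 by 2.06, Iigp1 by 1.85, Gbp3 by 1.81, Oas1a by 1.68, Ifit3 by 1.62, Rtp4 by 1.54 and Usp18 by 1.49. Ifit2, with the smallest p of the 36, fell by 1.40 ± 0.24 (SE, edgeR adjusted p = 0.000194). By role, 8 of 11 antiviral effectors, 3 of 4 sensors, all 3 of the ISG15 group, 3 of 6 GTPases, 2 of 5 oligoadenylate synthetases and 1 of 4 transcription factors fell, and none of the antigen processing and chemokine group did. Without NT no crush replicate 3, 11 members fell (8.75% of all genes) and all 11 were among the 20. These 11 included Ifit1, Rsad2, Oasl2, Ifit3 and Usp18, and the calls of Iigp1, Gbp3, Oas1a and Rtp4 were lost. Without the 3 libraries that stand apart, 29 fell and 1 rose, where 12.8% of all genes fell. The mean covers times with opposite signs, since the 3dpc difference was positive.

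The 4 differences between the crush responses of SSRP1KO and NT were tested together with an F-test. Oas2 passed (edgeR adjusted p = 0.0499), as did 0.728% of all genes. Without NT no crush replicate 3 edgeR called 20 members, where 0.826% of all genes passed. An unadjusted p under 0.05 was found in 30 of the 36, and DESeq2 called 8. Throughout, counts by unadjusted p and by DESeq2 have no share of all genes beside them. They do not show whether the members differ from other genes.

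Little ligand RNA was found. Of 9 interferon genes in the table only Ifng, the type II interferon, passed the filter, with 203 counts in 21 of the 30 libraries and at most 2.71 CPM. Ifnb1 had 3 counts, all in NT 1dpc replicate 1, and Ifna1, Ifnl2 and Ifnl3 had none. Only sorted cells were measured, so ligand made elsewhere in the retina was not assayed. Of the 10 receptor and kinase genes, Ifnar1, a chain of the type I receptor, rose in NT on 3 of the 4 days, the changes being 0.45 ± 0.14 at 2dpc (SE, edgeR adjusted p = 0.0276), 0.42 at 3dpc and 0.43 at 4dpc. These calls were lost in 6, 6 and 7 of 13 alternatives. Of the 10 genes, 1, 1 and 2 rose at NT 2, 3 and 4dpc, against 9.47%, 11.9% and 14.0% of all genes. Jak2, which serves the type II receptor, rose by 0.47 at 4dpc, a call lost without NT no crush replicate 3 (edgeR adjusted p = 0.106).

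Of the 15 genes of sensing and induction, 1, 1 and 2 rose at NT 2, 3 and 4dpc, against 9.47%, 11.9% and 14.0% of all genes. At 3dpc 2 fell, against 12.2% of all genes. Aim2, a DNA sensor, rose at NT 2dpc by 1.30, and Mavs, the adaptor of the RNA sensors, rose at NT 4dpc by 2.41. Irf3, the factor that starts interferon transcription, rose on days 3 and 4 (0.64 and 0.55). Tmem173 (STING) fell by 3.84 and Ifi204, a DNA sensor, by 3.14 at NT 3dpc. Without NT no crush replicate 3, the changes at these times were 1.07 for Aim2 (edgeR adjusted p = 0.126), 2.08 for Mavs (0.129), -3.02 for Tmem173 (0.129) and -1.30 for Ifi204 (0.464), and Irf3 at 4dpc had an adjusted p of 0.0502. In SSRP1KO, Aim2 fell at 2, 3 and 4dpc, by 1.39, 1.33 and 1.18 (edgeR adjusted p = 0.0227, 0.0237 and 0.0489), and these calls were lost in 8, 5 and 8 of 13 alternatives. Without crush Aim2 was 2.24 ± 0.42 higher in SSRP1KO than in NT on the log2 scale (SE, edgeR adjusted p = 0.00494), and Trim25, the ubiquitin ligase of RIG-I, was 2.07 ± 0.56 higher (0.033). The Aim2 call was lost in 2 and the Trim25 call in 5 of 13 alternatives, and 1.44% of all genes rose there. Trim25 also rose in the mean of the 5 times, by 0.75. Of the 8 restraint genes, Socs3 rose by 2.27 at NT 4dpc and Rnaseh2b, a subunit of the enzyme that removes RNA from DNA, rose by 0.91 at SSRP1KO 2dpc. The Rnaseh2b call was lost in 5 of 13 alternatives, and its level at SSRP1KO 2dpc had a mean of 27.0 and an SD of 11.3 CPM. In those comparisons 14.0% and 7.64% of all genes rose.

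A further 49 interferon-stimulated genes outside the 36 were tested. At NT 3dpc 20 of them fell and 1 rose, against 12.2% and 11.9% of all genes, led by Gbp6 (fell by 4.45 ± 1.01, SE, edgeR adjusted p = 0.00136), Dtx3l (2.33), Samd9l (2.41) and Irgm2 (4.18), with a list median of -1.75. Without NT no crush replicate 3, the changes were -1.33 for Gbp6 (edgeR adjusted p = 0.260), -0.59 for Dtx3l (0.459), -0.35 for Samd9l (0.690) and 0.02 for Irgm2, and Cxcl11 at 2dpc had an adjusted p of 0.0764. Isg20, an exonuclease, was the one that rose, by 2.61, and it also rose at 2dpc (2.67) and 4dpc (3.08). Trafd1, a feedback regulator, rose on days 2 and 4 (1.65 and 1.43), and Cxcl11 by 6.55 at 2dpc, Ifi27 by 1.40 and Tor3a by 1.35 at 4dpc. At NT 2dpc and 4dpc, 3 and 4 of the 49 rose, against 9.47% and 14.0% of all genes. In the mean of SSRP1KO over NT, 11 of the 49 fell and none rose, against 10.2% and 9.64% of all genes, led by Samd9l (fell by 1.503 ± 0.28, SE, edgeR adjusted p = 0.000388), Cd274 (1.49), Ifi35 (1.08) and Gbp6 (1.58), and Samd9l also fell without crush (2.28, and -0.22 without NT no crush replicate 3) and Ifi27 at 4dpc (1.27).

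Likeness was measured as Pearson's r between a gene's log2(CPM + 0.5) and the mean of the 36, over 30 libraries that share groups and sorts. Among the 10 most alike outside the set were Gbp6 (0.962), Cd274 (0.947), Dtx3l (0.942), B2m (0.940), Trim21 (0.937), Gm4951 (0.936), Trim34a (0.926), F830016B08Rik (0.924) and Gbp9 (0.918). The median r was 0.801 over the 49 further genes and 0.00534 over 16585 genes outside the set. A member's median r with the mean of the other members was 0.905, and it stayed at 0.904 without NT no crush replicate 3. Oas3 (0.507) and Oas2 (0.538) were the least alike of the members.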

How the data were processed

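For 30 libraries, made with a SMART-Seq kit for low input per the labels, the deposited values are raw read counts by gene symbol. The submitters' processing notes name GRCm38 (mm10), bcl2fastq 2.17, STAR and HTSeq, without their roles. How multi-mapping reads were handled, the annotation and the strand setting were not given in the sources used here, so counts of close copies (Ifit3 and Ifit3b, the Oas1, Gbp and Mx genes) and of overlapping genes are uncertain. Of 24060 symbols, 27 had become calendar dates, at most 0.275% of a library's counts, and were left out. Totals were 9715972 to 34420978 counts, with 15281 to 18504 genes detected. The number of libraries limits the precision. Floors cover counting error only. A second deposited table, of repeat intervals, was not used.

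The test was that of edgeR 4.0.16, run in R 4.3.3 (TMM, filterByExpr on the 10 groups, quasi-likelihood, 1 coefficient per group, 16621 genes, two-sided, Benjamini-Hochberg over these genes). CPM are counts over the TMM-scaled library size. Alternatives used RLE scaling, DESeq2 1.42.0, no filter, the replicate number as a block, a sex score from Xist and Y-linked genes, the 6 libraries compared, each library left out, and, chosen after seeing the data, the 3 libraries that stand apart left out. The steps were tested on simulated data. No 2 libraries of a group were duplicates (smallest chi-square per degree of freedom 11.5). Coordinates are from GENCODE M21 (GRCm38) and promoters from RefSeq (GRCm38.p6). Python 3.11.15, pandas 2.3.3, numpy 2.4.6 and matplotlib 3.10.9 were used for tables and plots.

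The members, the lists and the tests were chosen with earlier results of these data known. Members named with values in a comparison were the 10 with the largest fold change past the threshold, with others given by library as examples of their role, and from each pathway list up to 4 each way with the smallest adjusted p. Values of genes called only in an alternative were chosen after seeing the data. The results of 1 gene are not reported here.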

Additional observations from a re-analysis of the deposited data

Results flagged for a closer look

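Oas2 differed between the crush responses of SSRP1KO and NT cells by the F-test of the 4 differences (edgeR adjusted p = 0.04988). It had no count in the NT 3dpc libraries and 0.956 to 1.81 CPM at SSRP1KO 3dpc. With RLE scaling no member passed this test.

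The Cxcl10 fold changes at 1dpc had opposite signs in NT and SSRP1KO, neither past the threshold (edgeR adjusted p = 0.197 and 0.453), and neither group overlapped its own uncrushed libraries. Such non-overlap held for 12.4% of all genes, higher, in NT and 10.1%, lower, in SSRP1KO. It was higher in all 3 NT libraries at 1dpc (9.46 to 52.3 CPM) than in the NT no crush libraries (0 to 6.49 CPM), and lower in all 3 SSRP1KO libraries (0.852 to 4.48 CPM) than in the SSRP1KO no crush libraries (5.28 to 10.8 CPM). The difference of the 2 log2 fold changes was -5.276, and that difference at 1dpc alone was not tested. Over the 4 days together, the F-test gave an edgeR adjusted p of 0.1005 for Cxcl10.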

How the results depend on the processing

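The counts below are of the 36 genes called, in either direction. Where no share of all genes stands beside a count, it shows how the call moved with the setting. Such a count does not show whether the members differ from other genes, since the share of all genes called moves with the setting too. When each of the 30 libraries was left out in turn, the counts against no crush ran from 0 to 28 at NT 1dpc, 0 to 29 at 2dpc, 3 to 28 at 3dpc and 1 to 21 at 4dpc, and from 0 to 0 and then 0 to 1 on each later day in SSRP1KO. Between SSRP1KO and NT they ran from 0 to 6 without crush, 0 to 21 at 1dpc, 0 to 0 at 2dpc, 0 to 1 at 3dpc, 0 to 2 at 4dpc and 11 to 27 for the mean, and for the difference between crush responses from 0 to 20. Leaving out NT no crush replicate 3 gave the highest count at NT 1dpc, 2dpc and 4dpc, at 1dpc and 4dpc for SSRP1KO against NT and for the difference, and the lowest at NT 3dpc and for the mean. The 28 at NT 3dpc came without NT no crush replicate 1, the 27 for the mean without NT 2dpc replicate 3, and the 6 without crush without either of these. With only the 6 libraries compared, the counts were 0 at NT 1dpc, 1 at SSRP1KO 1dpc, 3dpc and 4dpc, and, between SSRP1KO and NT, 0 without crush, 32 at 1dpc (all lower, as were 1.53% of all genes), 7 at 3dpc (all higher, 2.04%) and 12 at 4dpc (all lower, 3.33%). DESeq2 gave 1 at SSRP1KO 4dpc, then 4 without crush, 8 at 1dpc, 3 at 2dpc and 2 at 3dpc and 4dpc for SSRP1KO against NT, and 8 for the difference. Without a filter these were 1 at SSRP1KO 4dpc, 3 without crush, 2 at 1dpc and 3 for the difference, and with RLE scaling the difference had 0. With the sex score, NT 3dpc had 15, NT 4dpc 0, SSRP1KO 4dpc 1, and, between SSRP1KO and NT, 0 without crush, 1 at 1dpc and 0 at 4dpc. Without the 3 libraries that stand apart, the counts were 3 at NT 1dpc, 2 at NT 2dpc, 1 at SSRP1KO 2dpc and 4dpc, and, between SSRP1KO and NT, 10 without crush (all lower, 9.23% of all genes), 14 at 1dpc (all lower, 0.201%), 2 at 3dpc (higher, 3.63%) and 3 at 4dpc (lower, 8.55%), with 23 for the difference (6.53%). The cause of these changes was not tested.

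Replicate numbers did not pair the libraries: same-numbered pairs had a median correlation of -0.008 (-0.327 to 0.26, 11 of 117 above 0.1), against 0.003 for other pairs. With the replicate block the counts were 0 at NT 1dpc and, between SSRP1KO and NT, 2 without crush, 0 at 4dpc and 15 for the mean. Of 25 calls of named members, 7 held in every alternative, 18 were lost in at least 1 and 0 reversed. Among 37 named pathway calls, 7 held in every alternative and 1 reversed, Irgm2 at NT 3dpc, whose log2 fold change ran from -4.751 without NT no crush replicate 2 to 0.02028 without replicate 3. With 3 libraries a group, 1 library can set a result.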
